A study of Mus musculus with 768 samples.

Results

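Mitosis genes are the genes whose products carry a cell through division: the kinases and cyclins that start it, the checkpoint that holds it until chromosomes are attached, the kinetochore, the condensins, and the spindle and cytokinesis machinery. A fixed list of 38 such genes was followed here, and all 38 are among the 27723 genes of the expression table, which writes mouse symbols in capitals. Most of these genes are transcribed late in the cell cycle, in G2 and mitosis, and many of their products are degraded as the cell leaves mitosis. Cyclin B with CDK1 drives entry, and the anaphase-promoting complex, activated by CDC20, ends mitosis by marking cyclin B and securin for destruction. Embryonic stem cells divide quickly, whereas neurons have left the cell cycle, so a change from one to the other passes from cells with these genes to cells without them.

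The cells are mouse embryonic stem cells of strain Ainv15, grown as embryoid bodies, with a doxycycline-inducible cassette of Neurog2, Isl1 and Lhx3 carrying a V5 tag. This set of 3 transcription factors programs spinal motor neurons. All groups carry the cassette. Viable single cells were sorted into 96 wells at each of 8 time points, before doxycycline (0 h) and 6, 12, 18, 24, 30, 36 and 48 h after 3 µg/ml was added, and their RNA was read by full-length SMART-Seq2 without molecular tags. The 0 h cells stand for the uninduced state. No separate cultures are named, so each time point is 1 sample, cells are not replicates of it, and no test between time points was possible. Intervals below cover counting error over cells only.

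Cells with at least 2000 genes above 0 TPM (a transcript level scaled to transcript length and to the total of the cell) were kept, 368 of 768. In order of time they numbered 37, 53, 52, 56, 55, 57, 44 and 14. The time points fall into 2 library sets that do not follow time, which differ in the level of Sod1: 6, 18, 24 and 30 h (Sod1-low) and 0, 12, 36 and 48 h (Sod1-high). Comparisons were made within a set only. The median number of genes per cell was 6481 to 7484 in the Sod1-low set, but 5304, 4269, 2894 and 2141 at 0, 12, 36 and 48 h, so genes missed for shallow reading weigh most at the last time points. Of 19 reference genes that every cell uses, the median cell had 18 to 19 above 0 in the Sod1-low set and 13, 12, 11 and 9 in the Sod1-high set. NEUROG2, ISL1 and LHX3 averaged 0.00, 3.32 and 0.119 TPM at 0 h and 5.65, 66.6 and 140 TPM at 12 h. Among markers of other cells that embryoid bodies can hold, the trophoblast factor CDX2 was at 0 in all kept cells, and the median summed level was 0 to 176 TPM for the 5 fibroblast markers, 0 to 10.1 for the 5 of primitive endoderm and 0 for the 4 of mesoderm. For the 6 motor neuron markers the median summed level was 0 TPM at 0 h and 9.61 to 225 TPM later. These 6 include ISL1 and LHX3 of the induced cassette, so their sum is no measure of motor neuron identity. For the 4 neural progenitor markers the median summed level was 0 to 110 TPM, and for the 3 trophoblast markers 0 to 3.11 TPM.

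Promoters of late cell-cycle genes are known for a cell cycle homology region (CHR, TTTGAA and its variant TTCGAA), which holds the repressor or activator complex according to the phase of the cycle, and for CCAAT boxes bound by NF-Y. RefSeq promoters of build GRCm38.p6, 250 bases before to 50 after the start, were listed for 32 of the 38 mitosis genes. AURKB, CCNA2, CDC25C, INCENP, SMC4 and TPX2 had none in that table. On either strand, TTTGAA or TTCGAA was found in 24 of the 32 (75.0%, 95% exact binomial interval 56.6 to 88.5), against 19.4% of the promoters of all 27025 genes listed. CCAAT was found in 25 of 32 (78.1%) against 37.9%, at least 2 CCAAT matches in 18 (56.2%) against 12.2%, and both elements together in 22 (68.8%) against 7.70%. When only the 250 bases before the start were read, 12 of 32 held a CHR match (37.5%, against 17.4% of all) and 25 a CCAAT match (78.1%, against 34.5%). The remaining CHR matches thus reach past the annotated start. The letters are matches, not measured binding.

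The 160 bases before the start are shown for the 4 genes that followed the other mitosis genes most closely across cells, as described below, and that have both elements there: CDK1 (chr10:69352913-69353072, minus strand), UBE2C (chr2:164769769-164769928, plus strand), TOP2A (chr11:99024190-99024349, minus strand) and MKI67 (chr7:135716380-135716539, minus strand). Each reads 5′ to 3′ toward the start, and capitals mark CHR matches (TTTGAA or TTCGAA or the reverse TTCAAA) and CCAAT boxes (CCAAT or the reverse ATTGG).
CDK1: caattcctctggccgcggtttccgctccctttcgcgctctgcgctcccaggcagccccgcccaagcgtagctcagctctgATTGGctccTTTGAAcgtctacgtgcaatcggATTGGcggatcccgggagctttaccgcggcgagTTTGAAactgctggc
UBE2C: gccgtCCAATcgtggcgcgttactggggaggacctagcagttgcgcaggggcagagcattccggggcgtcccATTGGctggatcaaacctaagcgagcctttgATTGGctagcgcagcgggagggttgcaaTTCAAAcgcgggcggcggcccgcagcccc
TOP2A: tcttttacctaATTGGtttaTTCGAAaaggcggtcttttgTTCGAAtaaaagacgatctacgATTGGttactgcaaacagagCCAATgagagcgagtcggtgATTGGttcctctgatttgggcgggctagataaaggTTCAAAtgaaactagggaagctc
MKI67: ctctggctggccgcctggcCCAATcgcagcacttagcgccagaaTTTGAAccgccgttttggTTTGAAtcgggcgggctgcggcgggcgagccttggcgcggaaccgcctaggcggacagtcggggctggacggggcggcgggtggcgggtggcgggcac
In CDK1 the nearest CHR match begins 15 bases before the start and the CCAAT boxes begin 80 and 48 bases before it. In UBE2C a CHR match begins 29 bases before the start, after CCAAT boxes at 155, 88 and 57. TOP2A holds 3 CHR and 4 CCAAT matches, and MKI67 holds 2 and 1. CCNB1, the cyclin that followed the group most closely of all, holds 2 CCAAT matches and no CHR match before its start, so this arrangement is not shared by every member.

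A cell was counted in the mitosis programme when at least 19 of the 38 genes were above 0. This is a threshold on a range, not a cell type. At 6 h 50 of 53 cells were in it (94.3%, 95% exact binomial interval 84.3 to 98.8), followed by 53 of 56 (94.6%, 85.1 to 98.9) at 18 h, 48 of 55 (87.3%, 75.5 to 94.7) at 24 h and 46 of 57 (80.7%, 68.1 to 90.0) at 30 h. The difference from 6 h was 0.303 points at 18 h (95% interval of Newcombe form built from exact binomial limits, -10.2 to 11.2). It was -7.07 points at 24 h (-19.6 to 5.41) and -13.6 points at 30 h (-27.0 to -0.0132). With a gene counted above 0, the 18 and 24 h differences lie within counting error and the 30 h difference only just leaves it. The direction at 18 h turns with the threshold: from 10 TPM the shares were 83.0% at 6 h and 71.4% at 18 h. That difference, -11.6 points, lies outside the interval given above for genes above 0, which is not its own interval. With at least 26 genes above 0 the difference was -8.02 points. In the Sod1-high set 31 of 37 cells were in the programme at 0 h (83.8%, 68.0 to 93.8), 29 of 52 at 12 h (55.8%, 41.3 to 69.5), 8 of 44 at 36 h (18.2%, 8.19 to 32.7) and 4 of 14 at 48 h (28.6%, 8.39 to 58.1). The difference was -28.0 points from 0 to 12 h (-45.6 to -7.06), -37.6 points from 12 to 36 h (-54.6 to -17.1) and 10.4 points from 36 to 48 h (-14.5 to 41.6).

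Depth moved with these shares in the Sod1-high set. Among cells of 2000 to 4000 genes, the shares were 33.3% at 0 h (6 cells) and 31.6% at 12 h (19 cells), a difference of -1.75 points. The difference from 12 to 36 h was -13.4 points in that window. Cells of at least 4000 genes (31 at 0 h, 33 at 12 h) gave a 0 to 12 h difference inside the interval of the full set. Their median numbers of genes were 5389 and 4566. When a gene counted only if it was among the 2000 highest of its cell, the share was 13.5% at 0 h and 17.3% at 12 h, which turns the direction. These readings differ, and the part of the number of genes read in the 0 to 12 h difference was not tested. In the Sod1-low set, cells of 5000 to 9000 genes gave a 30 h difference inside the interval of the full set. Their median numbers of genes still differed, 7548 at 6 h and 6633 at 30 h.

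The number of mitosis genes per cell shows how the range shifted. At 6 h the lowest cell had 11, the median cell 35 and the highest all 38. At 18 h these were 10, 35 and 38, at 24 h 11, 30 and 38, and at 30 h 6, 29 and 38. Cells with at least 35 of the genes numbered 28 of 53, 30 of 56, 17 of 55 and 19 of 57 over these times, so cells with nearly all of the genes were present at each of them. Between 6 and 30 h the lower quartile went from 30 to 20 genes and the upper quartile from 37 to 35. The number cannot exceed 38, which limits what the upper quartile can show. The 0 h cells ran from 17 to 34 with a median of 26, the 12 h cells from 7 to 36 with 19.5, the 36 h cells from 4 to 26 with 12 and the 48 h cells from 5 to 24 with 10.5. Cells within 2 genes of the threshold numbered 9, 5, 13, 4, 5, 12, 7 and 1 at 0, 6, 12, 18, 24, 30, 36 and 48 h.

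**Figure D1:**
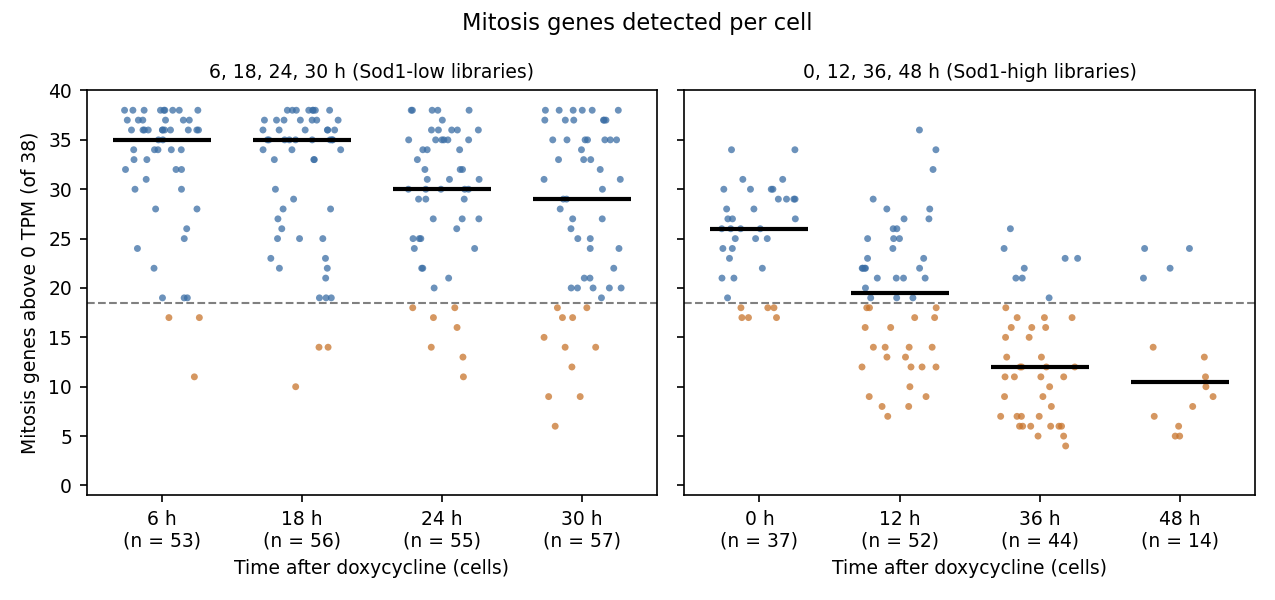
Number of the 38 mitosis genes above 0 TPM in each kept cell (vertical axis) by time point (horizontal axis, number of cells in brackets), with the Sod1-low libraries on the left and the Sod1-high libraries on the right. Points are cells, blue at 19 or more genes and orange below, bars are medians, and the dashed line marks the threshold; the medians of 6, 18, 24 and 30 h are 35, 35, 30 and 29.

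Mean levels and shares of cells differed in what they show. Of the 38 genes, 37 passed the filter (mean of at least 10 TPM and at least 25% of cells above 0 in the higher time point) at 30 h against 6 h, and CDC25B, a phosphatase that activates CDK1, did not. By a 2-fold threshold on log2(mean TPM + 1), 0 were lower and 1, SMC4, was higher, against 6.03% of 6317 genes lower and 13.9% higher. The median log2 fold change of the 37 was -0.06 beside 0.20 for all genes, and the range was -0.63 to 1.07. The share of cells above 0 was lower at 30 h than at 6 h for 37 of 38 genes, by at least 10 percentage points for 27, and higher by as much for 0. Of 10209 genes with a share of at least 25% at either time, 35.4% were lower by 10 points and 9.62% higher, and the median change was -13.9 points for the mitosis genes and -5.20 for all. This threshold in points was chosen after the data were seen. The count was 26 among cells of 5000 to 9000 genes, with 35.5% of all genes, and 23 of 37 when a gene counted from 10 TPM, with 27.2%. The median number of genes per cell was 7484 at 6 h and 6481 at 30 h, and the reference genes had 1 of 19 lower by 10 points.

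For the mitosis genes, the typical cell and the mean parted between 6 and 30 h. The median over cells was lower at 30 h for 29 of 38 genes, higher for 8 and equal for 1, and for 17 genes it was at most 0.5 times the 6 h median. The SD over cells divided by the mean had a median over genes of 1.06, 1.25, 1.35 and 1.45 at 6, 18, 24 and 30 h, and it was larger at 30 h than at 6 h for 32 of 38 genes. No such counts over all genes are given, so they are not read as particular to the mitosis genes. The median number of genes per cell also differed, 7484 at 6 h and 6481 at 30 h.

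**Figure D2:**
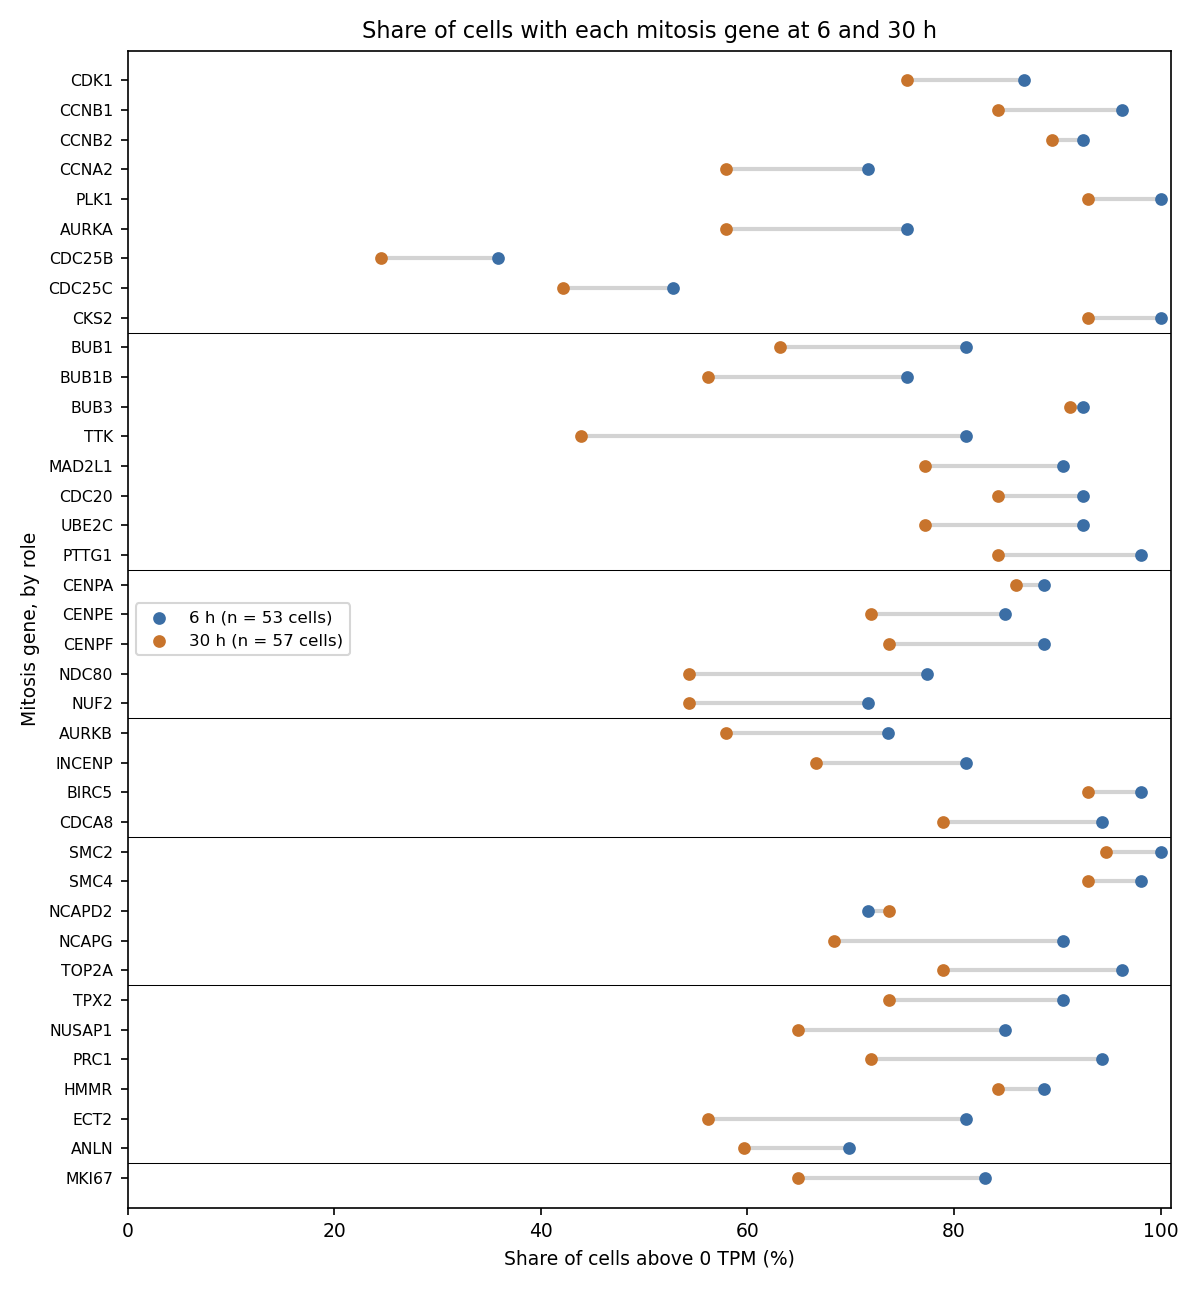
Share of kept cells above 0 TPM (horizontal axis, percent) for each of the 38 mitosis genes (vertical axis, grouped by role) at 6 h (blue, 53 cells) and 30 h (orange, 57 cells). The orange point lies left of the blue one for 37 genes and the exception is NCAPD2; TTK has the longest line, from 81.1% to 43.9%.

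The entry kinases and cyclins (9 genes) had a mean share of cells of 79.0% at 6 h and 68.6% at 30 h. CCNB1, the cyclin that activates CDK1 at mitotic entry, ranged from 0 to 1348 TPM at 6 h with a median of 258, and from 0 to 1830 TPM at 30 h with a median of 130. At 18 h it ran from 0 to 1452 with a median of 201, and at 24 h from 0 to 1276 with 120. Its ranges overlap at all 4 time points while the median at 30 h is the lower, and the means were 349 ± 320 TPM (SD, n = 53 cells) at 6 h and 290 ± 388 (n = 57) at 30 h. CDK1, the kinase itself, had a median of 94.1 TPM at 6 h (0 to 625), 48.3 at 18 h (0 to 343), 67.2 at 24 h (0 to 470) and 28.2 at 30 h (0 to 634). The log2 fold change of its mean was -0.59, 30 h against 6 h. CKS2, a small subunit that binds CDK1, had the highest mean TPM of this group. It ran from 26.8 to 1778 TPM at 6 h with a median of 438, and from 0 to 2495 at 30 h with a median of 239. At 18 h its mean was 891 ± 1298 TPM, with 1 cell at 9076. All 53 cells held CKS2 at 6 h and 53 of 57 at 30 h, so the gene stayed in nearly every cell at lower typical levels. PLK1, a kinase acting at centrosomes and kinetochores, was above 0 in 100% and 93.0% of cells at 6 and 30 h. AURKA, the centrosome and spindle kinase, was above 0 in 75.5% and 57.9%, and its median went from 26.9 to 3.80 TPM. CCNA2, the cyclin of S phase and G2, was above 0 in 71.7% and 57.9% of cells, but its mean was 13.4 and then 22.8 TPM, a log2 fold change of 0.73. CCNB2 had 92.5% and 89.5%, CDC25C 52.8% and 42.1%, and CDC25B 35.8% and 24.6%.

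Checkpoint and anaphase genes (8) went from a mean share of 88.0% at 6 h to 72.1% at 30 h. TTK, the kinase that starts the spindle checkpoint, had the largest difference of the 38, from 43 of 53 cells (81.1%) to 25 of 57 (43.9%), with shares of 73.2% and 54.5% at 18 and 24 h. Over 6, 18, 24 and 30 h its median was 12.9, 13.4, 4.49 and 0 TPM and its highest cell had 88.2, 266, 156 and 136 TPM. UBE2C, the ubiquitin-conjugating enzyme of the anaphase-promoting complex, had a median of 198 TPM (0 to 1589) at first and 88.2 (0 to 2959) at the end, while its mean was 322 and 300 TPM. PTTG1, securin, which the anaphase-promoting complex marks for destruction, had a like level at both ends. Its median was 208 TPM (0 to 1475) and then 216 (0 to 1150), although its share went from 98.1% to 84.2%. BUB3, a checkpoint subunit with other uses in the cell, had 92.5% and 91.2% of cells. BUB1 and BUB1B, checkpoint kinases of the kinetochore, had 81.1% and 63.2%, and 75.5% and 56.1%. MAD2L1, which inhibits CDC20, had 90.6% and 77.2%, and CDC20 had 92.5% and 84.2%.

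Kinetochore genes (5) had mean shares of 82.3% and 68.1% at 6 and 30 h. CENPA, the histone H3 variant of centromeres, was the exception in this group: 88.7% of cells at 6 h and 86.0% at 30 h, with medians of 76.8 TPM (0 to 638) and 93.9 TPM (0 to 649). CENPF, a large kinetochore protein of G2 and mitosis, was in fewer cells at 30 h (73.7%, against 88.7%) but had a higher mean, 43.2 ± 59.7 TPM against 24.7 ± 30.4, and a log2 fold change of 0.78. NDC80 and NUF2, partners in the complex that grips microtubules, went from 77.4% to 54.4% and from 71.7% to 54.4%. CENPE, a kinetochore motor, had 84.9% and 71.9%.

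The chromosomal passenger complex (4 genes), which corrects faulty attachments and guides cytokinesis, had mean shares of 86.8% and 74.1%. BIRC5, survivin, ran from 0 to 1625 TPM at 6 h with a median of 282, and from 0 to 812 at 30 h with a median of 157. CDCA8, borealin, had medians of 107 TPM (0 to 501) and 59.2 TPM (0 to 839). The kinase AURKB had 73.6% and 57.9% of cells and the scaffold INCENP 81.1% and 66.7%.

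Condensin and topoisomerase genes (5) were the most widely detected, with mean shares of 91.3% and 81.8%. TOP2A, which untangles DNA before separation, had a median of 77.8 TPM at 6 h (0 to 485), 119 at 18 h (0 to 834), 53.0 at 24 h (0 to 320) and 26.5 at 30 h (0 to 501). It was above 0 in 96.2%, 94.6%, 92.7% and 78.9% of cells. SMC4, the condensin core subunit, had a higher mean at every later time: the means of 6, 18, 24 and 30 h were 41.3 ± 35.1, 157 ± 189, 72.2 ± 98.1 and 87.9 ± 155 TPM. The 30 h call rests on its highest cell, at 1035 TPM, since the log2 fold change is 1.07 with it and 0.86 without the highest cell of each gene. Its medians were 33.9, 94.8, 30.8 and 42.5 TPM, so only 18 h stands apart in the typical cell. SMC2, its partner, had means of 144 and 92.5 TPM at those ends, a log2 fold change of -0.63, the lowest of the 38. NCAPG, a condensin I subunit, went from 90.6% to 68.4% of cells, and NCAPD2 from 71.7% to 73.7%, the one gene not lower.

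Spindle, midzone and cytokinesis genes (6) went from a mean share of 84.9% to 68.4%. HMMR, a spindle assembly protein, had medians of 36.5 TPM at 6 h (0 to 318), 42.0 at 18 h (0 to 11693), 15.6 at 24 h (0 to 339) and 13.0 at 30 h (0 to 381). Its mean of 306 TPM at 18 h was 98.7 without the highest cell. TPX2, which activates AURKA on the spindle, had medians of 22.5 and 14.0 TPM at 6 and 30 h. ECT2, the exchange factor that places the cleavage furrow, went from 81.1% to 56.1% of cells, with a log2 fold change of the mean of -0.47. PRC1, the midzone bundler, went from 94.3% to 71.9%, NUSAP1, a spindle protein, from 84.9% to 64.9%, and ANLN, of the contractile ring, from 69.8% to 59.6%. MKI67, the proliferation antigen that coats mitotic chromosomes, was in 44 of 53 cells (83.0%) at 6 h with a median of 6.73 TPM (0 to 63.6), and in 37 of 57 (64.9%) at 30 h with a median of 3.51 (0 to 112).

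**Figure D3:**
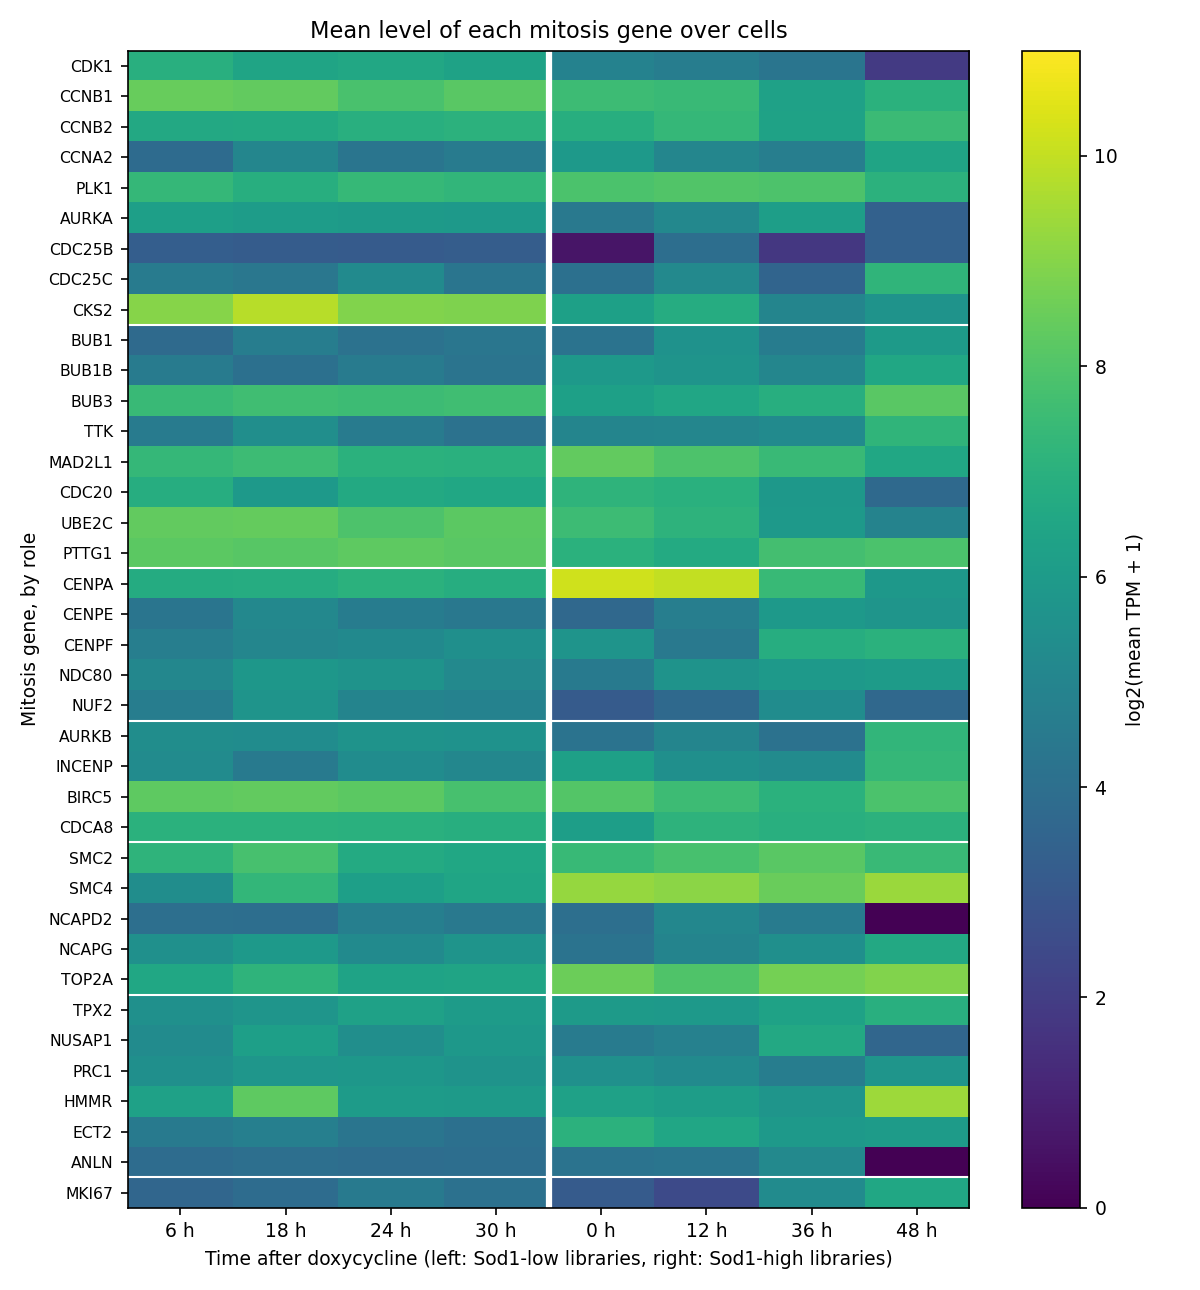
Mean level over kept cells as log2(mean TPM + 1) (colour) for each mitosis gene (rows, grouped by role) at each time point (columns), Sod1-low libraries left of the white bar and Sod1-high libraries right of it. Within the Sod1-high libraries the mean of CENPA is 1029 TPM at 12 h but only 167 at 36 h. The mean of HMMR at 18 h rests mostly on 1 cell, while at 48 h 5 of 14 cells had at least 100 TPM.

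The steps inside the Sod1-low set were small. At 18 h against 6 h, 37 genes passed, 0 were lower and 4 higher (CCNA2, HMMR, NUF2 and SMC4), against 7.36% and 11.8% of all genes. Without the highest cell of each gene CCNA2 and SMC4 were left. At 24 h against 18 h, 3 of 37 were lower (HMMR, SMC2 and SMC4) and 0 higher, against 6.4% and 9.05%. At 30 h against 24 h, 0 of 37 were lower and 0 higher, against 1.91% and 2.3%. None of these shares of members stands out from its background.

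In the Sod1-high set, 33 of 38 passed at 12 h against 0 h. One gene, CENPF, was lower and 4 were higher (BUB1, CDC25C, NDC80 and NCAPD2), against 13% of all genes lower and 17% higher. CENPF had a median of 32.9 TPM before doxycycline (0 to 216) and 0.600 at 12 h (0 to 278). The log2 fold change of its mean was -1.22. BUB1 had a log2 fold change of 1.41, which became -0.40 when cells from 1000 genes were kept. NDC80 was at 1.16, CCNA2 at -0.86 and INCENP at -0.77. CDC25B had means of 0.529 and 14.6 TPM and failed the filter, as did MKI67. Shares of cells were lower by 10 points for 25 of 37 genes and higher for 0, against 56.7% and 4.64% of all genes, with medians of -17.5 and -12.1 points. Among cells of 2000 to 4000 genes (19 and 6 cells) 19 of 31 were lower and 6 higher, with 50.5% of all genes lower. Among cells of at least 4000 genes 21 of 38 were lower and 2 higher, with 48.5% of all genes lower. TOP2A was in all 37 cells at 0 h (4.54 to 867 TPM, median 376) and in 40 of 52 at 12 h (0 to 1145, median 136). CCNB1 was in 35 of 37 (median 164 TPM) and 38 of 52 (median 21.3 TPM). SMC4 had medians of 415 and 348 TPM and CENPA of 985 and 758 TPM at 0 and 12 h, so these 2 chromatin genes were high at both times.

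At 36 h against 12 h, 32 genes passed, 6 were lower (CCNB1, CDC20, CDC25C, CENPA, UBE2C and CKS2) and 5 higher (MKI67, CENPE, CENPF, NUSAP1 and NUF2), against 24.8% and 19.4% of all genes. Both shares of members lie under those of all genes. CDC20 was not among the lower ones when means were rescaled to a median log2 ratio of 0. CENPA went from 44 of 52 cells and a mean of 1029 TPM to 21 of 44 cells and 167 TPM, a log2 fold change of -2.61. CKS2 went from 27 of 52 cells to 10 of 44, at -1.84. MKI67 had 11 of 52 and 14 of 44 cells, with a highest value of 67.0 and 524 TPM. Shares of cells were lower by 10 points for 28 of 35 genes and higher for 2 (MKI67 and NUF2), against 66.1% and 3.41% of all genes. Among cells of 2000 to 4000 genes it was 13 of 28, with 42.7% of all genes. At 36 h 30 of the 38 genes had a median of 0.

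At 48 h 14 cells were kept. Against 36 h, 26 genes passed, 5 were lower (CDC20, CENPA, NUSAP1, UBE2C and NUF2) and 8 higher (MKI67, AURKB, BUB1, BUB1B, BUB3, INCENP, HMMR and TTK), against 28.6% and 17.5% of all genes. Without the highest cell of each gene, 9 were lower and 2, AURKB and HMMR, higher. NCAPD2 and ANLN were at 0 in all 14 cells. A floor of 3 cells allows a share of up to 21.4% and the exact binomial interval one of up to 23.2%, in both cases of cells in which the gene would be read, not of cells that express it. TOP2A was in 8 of 14 (0 to 1704 TPM, median 71.4) and SMC4 in 12 of 14 (0 to 2196 TPM, median 397), so these 2 were still found in most cells.

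Mitosis genes varied together from cell to cell. Spearman's rho of each gene with the mean log2(TPM + 1) of the other 37, averaged over 6, 18, 24 and 30 h (53 to 57 cells each), had a median of 0.63, was at least 0.5 for 32 of 38 genes and ran from 0.36 to 0.86. All genes of a cell share its depth, so these are descriptions. CCNB1 was highest (0.86), followed by UBE2C (0.80), CDK1 (0.80), TOP2A (0.79), AURKA (0.78), CDCA8 (0.75) and MKI67 (0.75). The weakest were CDC25B (0.36), SMC2 (0.46) and NCAPD2 (0.48). PLK1, SMC4 and MAD2L1 were also under 0.5. The score of all 38 had a rho with the number of genes of the cell of 0.66, 0.45, 0.34 and 0.45 at 6, 18, 24 and 30 h.

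**Figure D4:**
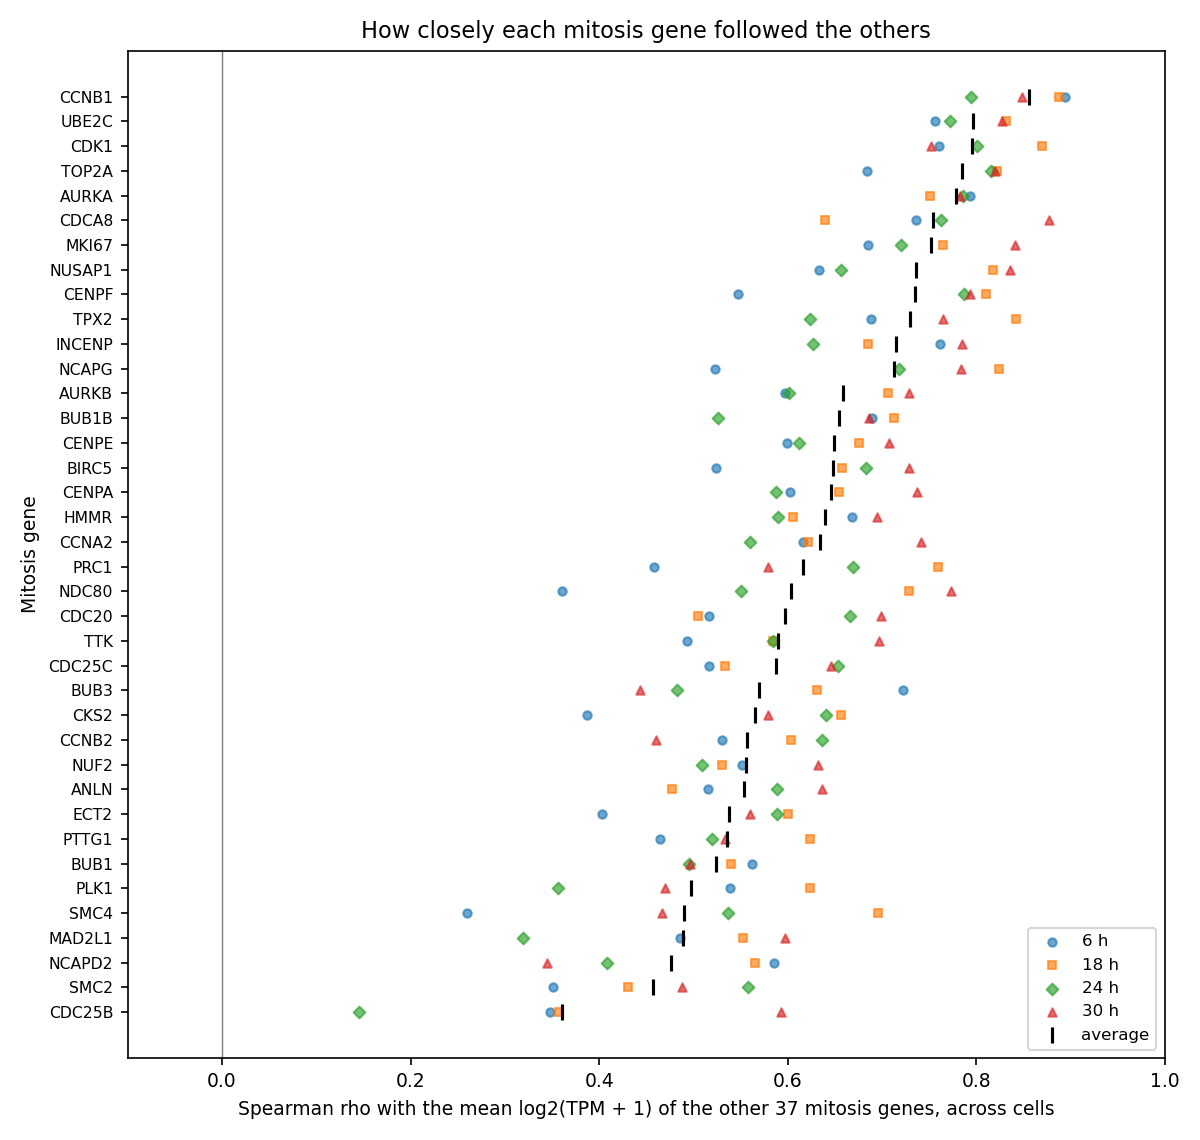
Spearman rho of each mitosis gene (vertical axis, sorted by the average) with the mean of the other 37 across the cells of 6, 18, 24 and 30 h (symbols), with the average as a black bar. CCNB1 lies highest at 0.86 and CDC25B lowest at 0.36.

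Among 7166 named genes above 0 in at least 25% of the cells of each of these time points, those with the highest rho with the 38-gene score were KIF20A (0.78), a midzone kinesin, TACC3 (0.74), a spindle protein, KPNA2 (0.74), an importin, KIF2C (0.72), a microtubule depolymerase, CCNF (0.72), CKAP2L (0.71), KIF11 (0.71), the kinesin that separates the poles, HMGB2 (0.70), MELK (0.69), TUBB2C (0.69), a beta tubulin, KIF22 (0.68) and TUBA1B (0.65), an alpha tubulin. Of these 12, 6 are on the list of 39 other mitosis genes. The median over all 8164 genes was 0.13. The lowest were KDM6B (-0.33), a histone demethylase, PRR15 (-0.27), PISD-PS1 (-0.25), JUND (-0.24), RNASEK (-0.23) and KIF24 (-0.23). The median over the 36 other mitosis genes compared was 0.52, over 24 S phase genes 0.35 and over 12 pan-neuronal genes -0.03.

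The other lists were read in the same way. At 30 h against 6 h, other mitosis genes had 1 of 29 lower and 1 higher in mean, while 30 of 39 were lower in share of cells by 10 points, with a median of -18.8 points, beside the 35.4% of all genes that were lower by as much. CKS1B, the paralog of CKS2, had 488 and 324 TPM at 6 and 30 h, SPC25, of the NDC80 complex, 129 and 94.3 TPM, and ZWINT, a kinetochore protein, 162 and 198 TPM. S phase genes had 0 of 24 past the 2-fold threshold, 22 of 24 below 0, and 11 of 24 lower in share by 10 points, again beside 35.4% of all genes. PCNA, the replication clamp, had 588 and 424 TPM at 6 and 30 h, and RRM2, of ribonucleotide reductase, 289 and 189 TPM. Of the cell cycle exit genes, 5 of 10 passed, 1 was lower and 2 higher. The lower one was GADD45G, a stress-response gene, with means of 223 TPM at 6 h and 49.3 TPM at 30 h. The higher ones were the antiproliferative gene BTG2, with 43.1 and 103 TPM, and CDKN1B (p27), with 4.2 and 14.7 TPM. CDKN1A (p21) did not pass 2-fold, with 96.9 and 141 TPM, and its 30 h mean was 112 TPM without the highest cell. Pluripotency genes had 8 of 10 lower, with a median of -1.44, and pan-neuronal genes 9 of 13 higher, with a median of 1.76. Over all genes, 6.03% were lower and 13.9% higher in mean by 2-fold. The median of the mitosis genes was -0.06. The lists were chosen with earlier results of these data known, so they are no neutral measure for the mitosis genes. No test compared the lists.

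Neuronal genes were then read in the same cells. Of 17 pan-neuronal genes in the table (cytoskeleton, RNA-binding and synaptic genes such as TUBB3, NEFL, STMN2 and ELAVL3), at least 3 were above 0 in nearly every cell of the Sod1-low set: 48 of 50 programme cells and 2 of 3 others by 6 h, 51 of 53 and 2 of 3 by 18 h, 47 of 48 and 7 of 7 by 24 h, and 46 of 46 and 10 of 11 by 30 h. A threshold of 3 therefore separates few cells. At least 5 were above 0 in 43 of 48 programme cells (89.6%, 77.3 to 96.5) and 6 of 7 others at 24 h. At 30 h it was 38 of 46 (82.6%, 68.6 to 92.2) and 9 of 11 (81.8%, 48.2 to 97.7). Read the other way, 43 of the 49 cells with at least 5 at 24 h were in the mitosis programme. For 30 h it was 38 of the 47 (80.9%, 66.7 to 90.9). The same threshold took in 45 of 53 cells at 6 h, 47 of 56 at 18 h and 11 of 37 uninduced cells at 0 h. It therefore does not tell neurons from early or uninduced cells. In the Sod1-high set, 12 of 29 programme cells and 13 of 23 others had at least 5 at 12 h, 4 of 8 and 20 of 36 at 36 h, and 1 of 4 and 7 of 10 at 48 h. Of cells with at least 5, 12 of 25 at 12 h, 4 of 24 at 36 h and 1 of 8 at 48 h were in the programme. In the Sod1-low set, cells with both groups of genes made up 83.0%, 83.9%, 78.2% and 66.7% of kept cells at 6, 18, 24 and 30 h. The shares in the Sod1-high libraries were 27.0%, 23.1%, 9.09% and 7.14% at 0, 12, 36 and 48 h, where the median number of genes per cell also became smaller at each step.

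Levels separated the cells more than detection did. The summed TPM of the 17 neuronal genes had a median of 464 in programme cells (10.3 to 9019) and 1553 in the others (125 to 8474) at 24 h. At 30 h it was 332 (26.6 to 7629) and 1660 (72.7 to 5812), and at 12 h 216 (0 to 2319) and 1134 (4.28 to 4150). At 36 h it was 990 (14.6 to 7524) and 1433 (42.3 to 26413), and at 48 h 912 (130 to 1339) and 3394 (42.0 to 24734). The medians of the cells outside the programme were the higher at these 5 time points, and the ranges overlapped at each. At 0 h they were also the higher, 199 TPM (6 cells) against 169 in programme cells (31 cells). The order was reversed at 6 h, 218 TPM in programme cells against 138 outside, and at 18 h, 300 against 57.3. At 6 and 18 h only 3 cells each were outside, with a median of 3051 and 2813 genes. With at least 8 neuronal genes, a threshold added after the data were seen, the shares were 20 of 46 and 8 of 11 at 30 h, a difference of -29.2 points, and 31 of 48 and 6 of 7 at 24 h, a difference of -21.1 points. Programme cells were also the deeper ones at 24 and 30 h, with a median of 6924 and 6592 genes against 5417 and 5949 in the others, and both classes had 18 of the 19 reference genes. The part of depth in the difference was not tested.

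Single neuronal genes are given for 30 h, chosen after their values were seen. NEFL, neurofilament light chain, had a mean of 30.8 ± 85.7 TPM in programme cells (14 of 46 above 0) and 245 ± 428 in the others (7 of 11). NEFM, the medium chain, had 10.5 and 69.5 TPM. GAP43, of growth cones, had medians of 82.9 and 334 TPM, and STMN2, a tubulin regulator of axons, 58.1 and 215 TPM. TUBB3 had means of 170 and 199 TPM, which are close. POU5F1, the pluripotency factor Oct4, was above 0 in 29 of 46 programme cells (mean 66.2 ± 108 TPM) and in 0 of 11 others, which allows a share of up to 27.3% by the floor of 3 cells and 28.5% by the exact binomial interval. At 24 h it was above 0 in 38 of 48 and 4 of 7. PCNA had medians of 399 and 93.3 TPM at 30 h. The median cell had 21 of the 24 S phase genes in the programme and 15 outside it, and 5 and 3 of 12 pluripotency genes. Cells outside the programme at 30 h thus had fewer S phase and pluripotency genes above 0. They have fewer mitosis genes by definition. They also had fewer genes in all, a median of 5949 against 6592, and the part of depth was not tested.

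**Figure D5:**
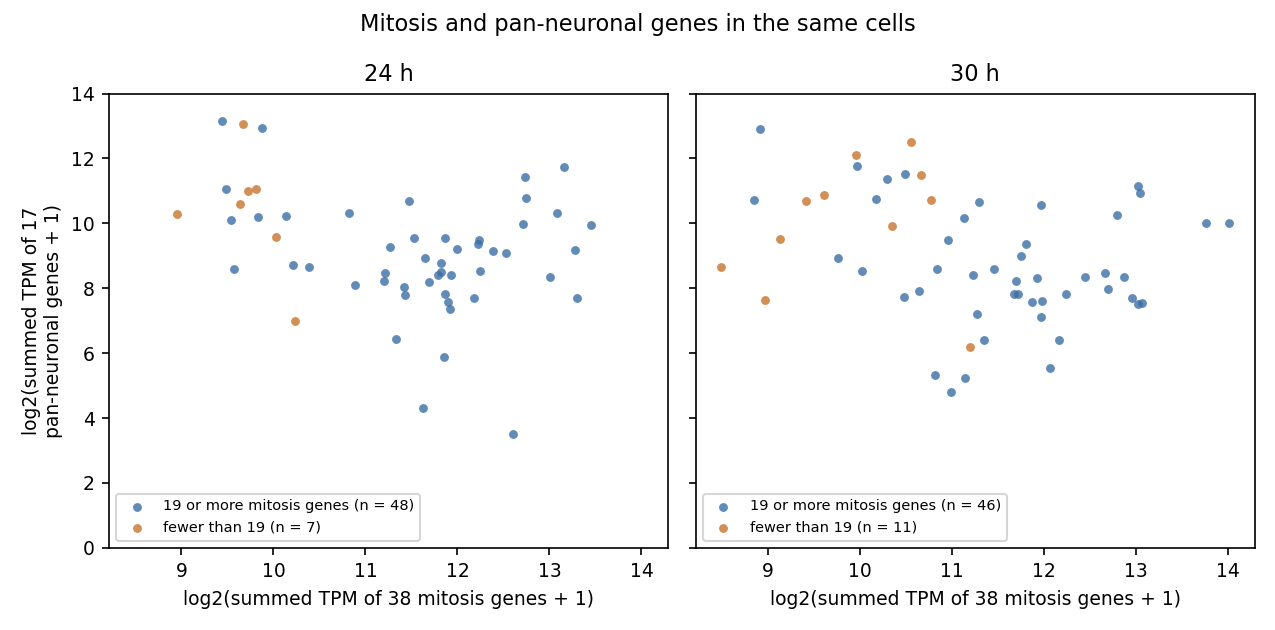
Summed TPM of the 38 mitosis genes (horizontal axis, log2 scale) against summed TPM of the 17 pan-neuronal genes (vertical axis, log2 scale) in each kept cell at 24 h (left, 55 cells) and 30 h (right, 57 cells); blue cells have 19 or more mitosis genes above 0 and orange cells fewer. The highest neuronal sums, 9019 TPM at 24 h and 7629 TPM at 30 h, lie at the low end of the mitosis axis although both cells are blue.

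The 5 cells with the highest neuronal sums were read singly at 24 and 30 h. The 3 highest neuronal sums at 24 h were 9019, 8474 and 7838 TPM, in cells with 27, 17 and 24 mitosis genes above 0. In these cells CCNB1 stood at 5.43, 9.19 and 38.9 TPM and TOP2A at 2.96, 4.96 and 1.38 TPM, against medians of 120 and 53.0 TPM over all cells of that time, and the mitosis genes summed to 693, 811 and 937 TPM against a median of 3197. These 3 cells had 8102, 4757 and 6751 genes in all. The next 2 cells of 24 h differ: their neuronal sums were 3402 and 2780 TPM with 38 and 35 mitosis genes above 0, mitosis sums of 9167 and 6801 TPM and CCNB1 at 1276 and 292 TPM. They had 7955 and 7011 genes, against a median of 6676. At 30 h the 5 highest neuronal sums were 7629, 5812, 4360, 3515 and 2957 TPM, in cells with 24, 18, 12, 25 and 20 mitosis genes above 0 and mitosis sums of 481, 1499.6, 991, 1000.3 and 1440.3 TPM, all under the median of 2469. CCNB1 did not follow 1 direction in them: it stood at 2.03, 111, 0, 190 and 2.40 TPM, so the fourth lay above the median of 130 TPM. Wells with more than 1 cell were not called, and their part in such cells was not tested.

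Across cells, the mean log2(TPM + 1) of the mitosis genes had a rho with that of the neuronal genes of 0.29, 0.02, -0.07 and -0.10 in the cells of 6, 18, 24 and 30 h. After the rank of the number of genes was removed from both it was 0.04, -0.14, -0.21 and -0.24 (53 to 57 cells). In the Sod1-high set it was 0.22, -0.16, -0.28 and -0.67 at 0, 12, 36 and 48 h (37, 52, 44 and 14 cells), and 0.09, -0.32, -0.26 and -0.61 after removal. With the other mitosis genes the rho was 0.76 to 0.95 at all 8 time points, and with the S phase genes 0.41 to 0.76. The relation with neuronal genes is thus weak in the Sod1-low set, in sparse values, and at 48 h it rests on 14 cells.

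Cells rich in neuronal genes were set beside all kept cells of their own time point. Those with at least 12 of the 17 neuronal genes numbered 5, 11, 14, 12, 7 and 2 at 6, 18, 24, 30, 36 and 48 h, a threshold also chosen after the data were seen. Their median number of mitosis genes was 37, 28, 29.5, 22, 9 and 6.5, against 35, 35, 30, 29, 12 and 10.5 over all kept cells, so they were lower at 18 and 30 h, nearly the same at 24 h and higher at 6 h in the Sod1-low set. In the programme were 5 of 5, 11 of 11, 12 of 14, 8 of 12, 1 of 7 and 0 of 2. Their summed mitosis level had a median of 4841, 2178, 2332, 1349, 1754 and 2010 TPM. Their median number of genes was 8252, 7717, 7296, 6554, 2863 and 2069.5, against 7484, 7348, 6676, 6481, 2894 and 2141 over all kept cells, themselves included.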

How the data were processed

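The deposited table holds 1 column for each of 768 cells. The values were taken as TPM, since each deposited column sums to 1000000 and the column names of the authors' table carry the word rsem, so depth is not kept and no count test was possible. Per the labels, 50 bp single-end reads of SMART-Seq2 libraries were made in 2 batches, at about 325000 reads per cell, and which cells belong to which batch is not given. Named in the submitters' processing notes are Picard, bcl2fastq and the build mm10, with no version; aligner and annotation: not given in the sources used here. All 768 columns matched a sample label, and time points were taken from the labels.

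The analysis used the 368 cells that had 2000 genes or more above 0. Per time point, Python 3.11.15 with scipy 1.17.1, pandas 2.3.3, numpy 2.4.6 and, for plots, matplotlib 3.10.9 gave shares of cells with exact binomial (Clopper-Pearson) 95% intervals, a floor of 3 cells where the count was 0, means, SDs, medians and ranges. Differences of shares have intervals of Newcombe's square-and-add form, built from the exact binomial limits and not from Wilson limits. Log2 fold changes compare log2(mean TPM + 1) and understate changes of low genes. They were computed for all genes and called at 2-fold. These steps were checked on simulated data. Spearman's rho across cells is a description. No doublet caller was run.

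The members and lists were chosen with earlier results of these data known. All members could be named, with fuller values for the 2 highest of each role group and the 3 largest and 3 smallest changes of 30 h against 6 h and of 12 h against 0 h. Outside the members, the 12 genes most and 6 least like them and up to 4 highest genes of each list (other mitosis, S phase, cell cycle exit, pan-neuronal, pluripotency, factors, reference, markers of motor neuron, fibroblast, primitive endoderm, mesoderm, trophoblast and neural progenitor) could be named. TTK, CDKN1B, NEFL, NEFM, GAP43, STMN2, TUBB3 and POU5F1 and the remaining members' values were added for description. Alternatives covered thresholds, pseudocounts, scaling, gene number and the highest cell. Promoter letters were read from RefSeq sequences of GRCm38.p6, where all 38 genes had a position, and their direction was checked against transcript starts (29 of 32 matched, 0 in reverse). Motif matches include overlaps.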

Additional observations from a re-analysis of the deposited data

How the results depend on the processing

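The programme share depends on how strictly it is set. With at least 13 of 38 genes it was 100%, 80.8%, 98.2%, 93.0% and 43.2% at 0, 12, 24, 30 and 36 h. With at least 26 it was 56.8%, 83.0%, 19.2%, 75.0%, 70.9%, 57.9%, 2.27% and 0% over the 8 times in order. With detection from 10 TPM it was 56.8%, 83.0%, 25.0%, 71.4%, 72.7% and 56.1% from 0 to 30 h, and among the 2000 highest genes 13.5%, 39.6%, 17.3%, 41.1%, 36.4% and 31.6%. Cells of at least 4000 genes gave 69.7% at 12 h and 100% at 18 h, and no cell at 36 or 48 h, so those values could not be had. Cells from 1000 genes gave 76.4% at 18 h and 7.14% at 48 h. Cells in a window of gene number (2000 to 4000 in the Sod1-high set, 5000 to 9000 in the Sod1-low set) gave 33.3%, 31.6% and 100% at 0, 12 and 18 h. The window did not make gene numbers equal. Its medians were 3911.5 at 0 h (6 cells), 3350 at 12 h (19 cells), 7548 at 6 h and 6633 at 30 h. The difference of 18 against 6 h, 0.303 as reported, was -11.6 points from 10 TPM, -8.02 at 26 genes and -9.82 with cells from 1000 genes, so its sign turned. The difference of 12 against 0 h also turned, to 3.79 points among the 2000 highest genes, and was -1.75 among cells in the window. The difference of 36 against 12 h was -17.0 points at 26 genes and -11.4 from 10 TPM. It was -8.22 among the 2000 highest genes and -13.4 among cells in the window. Of all alternative differences, 33 stayed inside the interval as reported, among them -8.02 and -9.82 of 18 against 6 h.

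Counts of genes past 2-fold were small, so 1 gene moves them. At 18 h against 6 h, those higher were 2 with a pseudocount of 10 TPM, with cells of at least 4000 genes and without the highest cell, and rescaling gave 1 lower. At 24 against 18 h rescaling gave 5 lower. At 30 against 24 h, 1 was lower with a pseudocount of 0.1 TPM or cells from 1000 genes. At 30 against 6 h, 0 were higher with a pseudocount of 10 TPM, after rescaling, from 4000 genes and without the highest cell. At 12 against 0 h, those lower were 0 with a pseudocount of 10 TPM or from 4000 genes and 2 from 1000 genes or without the highest cell, and those higher were 1 and 7 with the first 2. At 36 against 12 h, 11 were lower from 1000 genes or without the highest cell. At 48 against 36 h, no filter gave 9 lower and 14 higher, cells from 1000 genes 0 lower, and leaving out the highest cell 9 lower and 2 higher. BUB1 at 12 against 0 h became -0.40 from 1000 genes. Alternatives for genes lower by 10 points in share were added after the data were seen. From 10 TPM such genes were 16 at 12 against 0 h and 18 at 36 against 12 h. Among cells of 2000 to 4000 genes they were 13 at 36 against 12 h.

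The neuronal share of programme cells minus that of the others, for at least 3 neuronal genes, was 24.2, 29.3, 8.85, 29.6, -2.08, 9.09, -11.1 and 30.0 points over the 8 times. Cells of 2000 to 4000 genes gave -50.0 at 0 h (6 cells). Programmes of 13 genes gave -5.77 at 6 h and -5.45 at 18 h, and of 26 genes -86.0 at 36 h. Neuronal genes from 10 TPM gave -16.9 at 12 h and -6.13 at 30 h. With both groups among the 2000 highest genes it was -20.2, -22.8, -13.6, -3.85 and 32.5 at 12, 18, 24, 30 and 36 h. At least 5 neuronal genes gave 88.7 at 18 h and -45.0 at 48 h, and at least 8 gave -21.1, -29.2 and -40.0 at 24, 30 and 48 h. The causes were not tested. No paired analysis was possible because the time points share no numbered replicates and no test was run. TPM keeps no depth, so a gene at 0 may be unread, most at 36 and 48 h.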
